A study of Drosophila melanogaster with 9 samples.

Results

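The phagocytosis and scavenger receptor genes of Drosophila melanogaster described here are eater, NimC1, NimC4, drpr, crq, pes, Sr-CI, Sr-CII and Sr-CIV. They were chosen by name, and all 9 were matched to a FlyBase identifier among the 17559 genes counted per library. The 9 libraries held poly(A) RNA of S2R+ cells, an embryonic line with the character of blood cells (haemocytes), in 3 groups of 3. GFP cells made a green fluorescent protein sent to the nucleus, Ubx-WT cells the wild-type Hox transcription factor Ultrabithorax, and Ubx-N51A cells Ultrabithorax with the homeodomain change N51A. All groups carried the Gal4-UAS expression system with an actin promoter. The protocols give the Ubx proteins a myc tag and the sample characteristics a GFP tag, which was not settled here. The deposited file names hold a sorting term that is not the same for each group. Should it mean cell sorting, its part and that of the expressed protein cannot be told apart. Per the labels, the replicates were independent, and 3 of the 4 made per group were kept after a principal component analysis. The effect of that choice on the spread was not measured here.

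Phagocytosis is the uptake of dead cells and microbes, and haemocytes carry it out through surface receptors. Receptors of the Nimrod family carry repeats of a cysteine-rich module outside the cell: Eater and NimC1 bind bacteria, while NimC4, also called Simu, and Draper, the product of drpr, act in the clearance of dying cells and their debris. Croquemort (crq) and Peste (pes) belong to class B, the CD36 family of scavenger receptors. The class C receptors, of which Sr-CI is the best studied, are known from insects and bind microbial surfaces. S2-type cells are a standard model for such uptake.

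The libraries counted 30967554 to 66828787 reads over all genes, and mitochondrial genes took 1.92% to 5.87% of them, lowest in GFP replicate 1 and highest in Ubx-N51A replicate 1. The GFP libraries held 8 to 89 Ubx reads and the libraries of both Ubx groups 51719 to 145254, which matches the labels. Of 11 haemocyte genes listed, 3 stood under 1 CPM in every library: He, gcm and gcm2. Higher were srp, a GATA factor, at 210.1 to 242 CPM over the 9 libraries and Pxn, peroxidasin, at 406 to 502 CPM. Hml, hemolectin, was low at 6.39 to 9.65 CPM. Here CPM means reads per 1000000 reads in genes, with library sizes adjusted by TMM, a trimmed mean of the log ratios between libraries. In RNA pooled over many cells, fewer cells expressing a gene and less RNA per cell cannot be told apart.

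The cells transcribed 4 of the 9 receptor genes at appreciable levels: crq, pes, NimC4 and drpr. The remaining 5 were low or near silent, among them eater and NimC1. Together the 9 genes took 0.0543% to 0.0591% of the reads in genes, and crq and pes held 82.9% to 85.8% of the 9 genes' reads. To compare genes, CPM was divided by the summed exon length in kb. On this scale crq had a mean level of 90.8 ± 2.18 CPM per kb in GFP cells (SD, n = 3). That was above 90.0% of the genes with a known exon length among the 9207 tested. Next came pes with 56.9 ± 1.99, NimC4 with 30.3 ± 4.89, drpr with 9.54 ± 0.185 and Sr-CI with 2.01 ± 0.235 CPM per kb. The lowest 2 of the receptor genes tested were eater with 0.582 ± 0.106 and Sr-CIV with 0.511 ± 0.0624 CPM per kb. They stood above 16.9% and 15.7% of the tested genes with a known exon length. The order of these means was the same in all 3 groups. In each group no neighbours in it overlapped between libraries from crq down to eater, while eater and Sr-CIV overlapped with GFP and with Ubx-WT and were apart with Ubx-N51A.

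**Figure D1:**
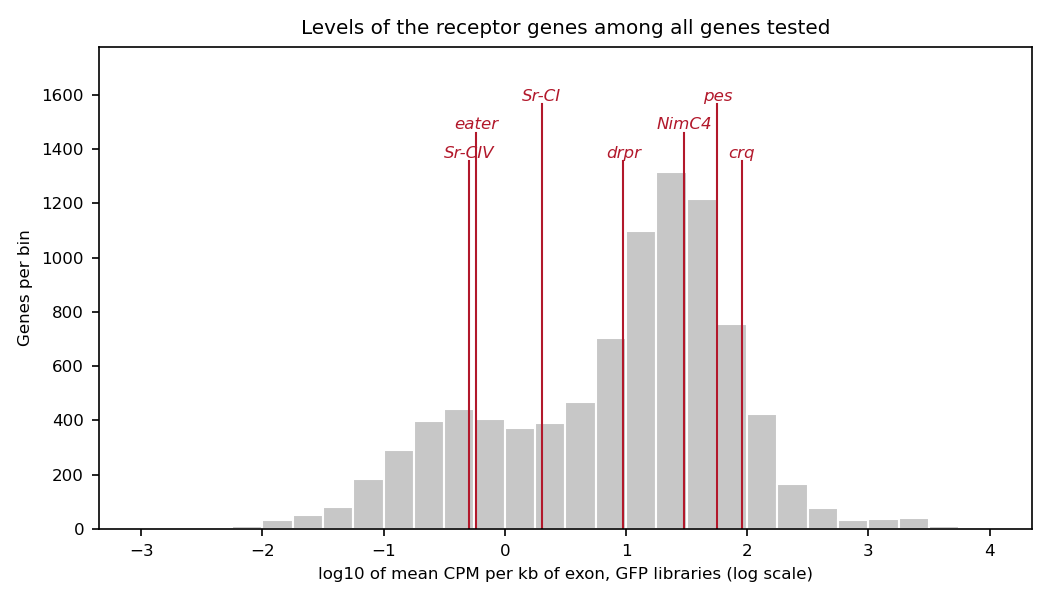
Histogram of the mean level of the genes tested in the 3 GFP libraries, as log10 of CPM per kb of exon (x axis) against the number of genes per bin (y axis). Genes without a known exon length or without GFP reads are left out. Red lines mark the 7 receptor genes that passed the count filter: crq and pes lie on the right flank at 90.8 and 56.9 CPM per kb, and eater and Sr-CIV on the left, under 0.6 CPM per kb for all but the highest eater library.

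NimC1 and Sr-CII did not pass the filter on low counts and were therefore outside the main test. NimC1, the plasmatocyte antigen known as P1 (2L, 13973158 to 13976769, minus strand, BDGP6.54), was read 0, 1 and 1 times with GFP, 3, 4 and 6 times with Ubx-WT, and 1, 0 and 4 times with Ubx-N51A. Every Ubx-WT library held more NimC1 reads than every GFP library, at a few reads each. The summed counts of 13 and 2 gave a ratio of 5.44 with an exact 95% interval of 1.23 to 49.6, which covers counting error only. Without the filter NimC1 did not pass for Ubx-WT against GFP (edgeR adjusted p = 0.149). Sr-CII (2R, 12208893 to 12212155, minus strand) had 2 reads in Ubx-N51A replicate 2 and 0 in the other 8 libraries. The 136176334 reads of the GFP group allow Sr-CII a level of up to 0.022 CPM, and the 156870262 of the Ubx-WT group up to 0.0191 CPM, again for counting error only.

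Croquemort, a receptor for dying cells, was the most abundant of the 9 and nearly level across the groups. Its gene crq (2L, 448254 to 453024, minus strand) stood at 251, 262 and 262 CPM with GFP, at 260.3, 290.2 and 275 CPM with Ubx-WT, and at 285, 268 and 263 CPM with Ubx-N51A. All Ubx-N51A libraries lay above all GFP libraries by a small margin, while Ubx-WT and GFP overlapped. The log2 fold change was 0.09 (95% interval -0.01 to 0.19; edgeR adjusted p = 0.216) for Ubx-WT against GFP and 0.07 (-0.03 to 0.18; edgeR adjusted p = 0.381) for Ubx-N51A against GFP. These intervals leave room for at most a 1.14-fold and a 1.13-fold higher level. With library totals in place of TMM crq was called higher with Ubx-WT (0.14, edgeR adjusted p = 0.0445). Ubx-N51A against Ubx-WT gave -0.02 (95% interval -0.12 to 0.08; edgeR adjusted p = 0.904). The last 448 bp of crq's exons lie opposite those of ex, a gene with 6896 to 16368 reads per library. Whether the counting used the strand is not known from the labels, so how reads from that stretch were counted is unsettled.

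Peste, the CD36 relative needed by S2 cells for the uptake of mycobacteria, was lower with Ubx-WT by a small margin. The gene pes (2L, 7986786 to 7994184, minus strand) had 211, 219.9 and 226 CPM with GFP, 188, 204 and 195 CPM with Ubx-WT, and 206, 199 and 199 CPM with Ubx-N51A. Every library of both Ubx groups lay below every GFP library. The fall with Ubx-WT passed the test, with a log2 fold change of -0.16 (SE 0.0417; 95% interval -0.25 to -0.07; edgeR adjusted p = 0.0168), a change of -10.7%. With Ubx-N51A it was -0.12 (SE 0.0418; 95% interval -0.21 to -0.03; edgeR adjusted p = 0.103) and did not pass. Between the Ubx proteins pes differed by 0.04 (95% interval -0.05 to 0.13; edgeR adjusted p = 0.654). The call for Ubx-WT was lost without GFP replicate 2 (edgeR adjusted p = 0.0651), GFP replicate 3 (0.0644), Ubx-WT replicate 1 (0.0514) or Ubx-WT replicate 3 (0.0644). It was also lost with library totals in place of TMM (log2 fold change -0.11, adjusted p = 0.087).

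**Figure D2:**
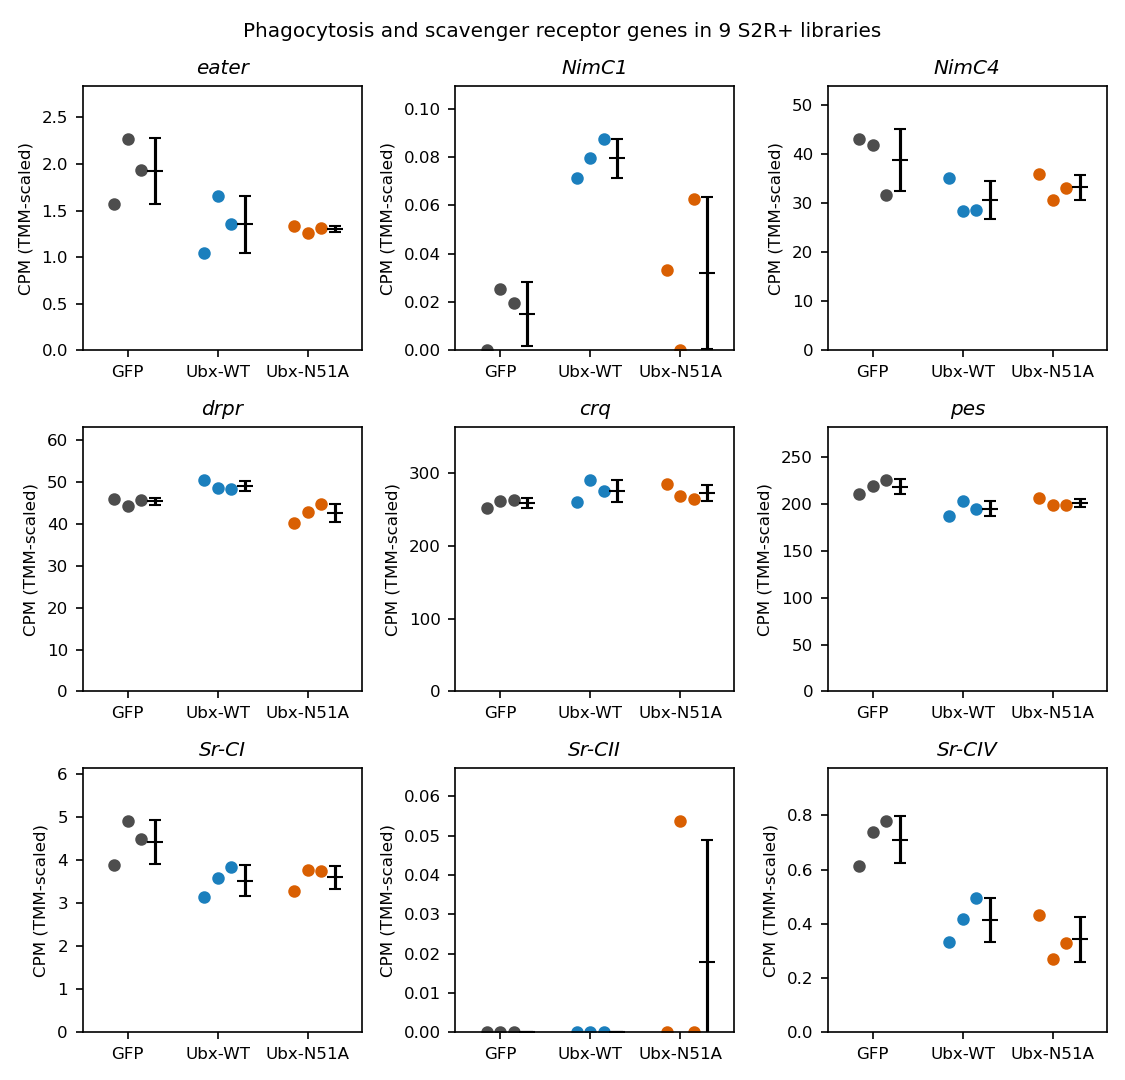
TMM-scaled CPM (y axes, each from 0) of the 9 receptor genes in the 3 GFP, 3 Ubx-WT and 3 Ubx-N51A libraries. Points are libraries and the black marks give the mean and SD of each group; pes, Sr-CIV and Sr-CI have all Ubx libraries below all GFP libraries, crq and drpr vary little, and NimC1 and Sr-CII rest on 0 to 6 reads per library.

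Draper, the engulfment receptor of glia and haemocytes, was the 1 receptor of 7 called as different between the Ubx proteins. The gene drpr (3L, 1715595 to 1731107, minus strand) had 46.0, 44.4 and 45.8 CPM with GFP, 50.5, 48.5 and 48.4 CPM with Ubx-WT, and 40.3, 42.8 and 44.7 CPM with Ubx-N51A. The Ubx-WT libraries lay above all others, and the Ubx-N51A libraries overlapped with GFP. With Ubx-N51A drpr was lower than with Ubx-WT, with a log2 fold change of -0.20 (SE 0.0471; 95% interval -0.30 to -0.10; edgeR adjusted p = 0.0252), or -13.1%. Against GFP neither protein passed: the log2 fold change was 0.11 (95% interval 0.01 to 0.22; edgeR adjusted p = 0.116) with Ubx-WT and -0.09 (-0.19 to 0.02; edgeR adjusted p = 0.29) with Ubx-N51A. The difference between the Ubx proteins kept its call in 1 of 6 fits with a library left out. Its edgeR adjusted p was 0.0737, 0.0505 and 0.0715 without Ubx-WT replicate 1, 2 and 3, and 0.0837, 0.0779 and 0.021 without Ubx-N51A replicate 1, 2 and 3. It was also lost with the replicate block (0.0511) and in the fit of the 2 groups alone (0.0559). With library totals drpr was called higher with Ubx-WT than with GFP (0.17, edgeR adjusted p = 0.0369). Draper isoforms that differ in signalling are known, and counts per gene do not separate them. The exons of drpr share 115 bp with those of Oseg4 on the same strand, a gene with 130.0 to 419 reads per library.

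NimC4, the Nimrod receptor that tethers dying cells, was the least even of the abundant receptors. It (2L, 14047582 to 14048863, plus strand) had 43.1, 41.8 and 31.6 CPM with GFP, 35.0, 28.3 and 28.5 CPM with Ubx-WT, and 35.8, 30.6 and 33.1 CPM with Ubx-N51A. GFP replicate 3 lay within the range of both Ubx groups, and the groups overlapped. The log2 fold change was -0.34 (SE 0.111; 95% interval -0.58 to -0.10; edgeR adjusted p = 0.0522) with Ubx-WT and -0.23 (-0.47 to 0.02; edgeR adjusted p = 0.247) with Ubx-N51A, and neither passed. The call depended on single libraries, on the filter and on the model. Without GFP replicate 3 the difference was -0.47 (edgeR adjusted p = 0.00467) with Ubx-WT and -0.35 (0.0436) with Ubx-N51A. Without Ubx-WT replicate 1 it was -0.45 (0.0134) with Ubx-WT. With all libraries kept, the Ubx-WT difference was called by DESeq2 (-0.35, adjusted p = 0.0164), without the filter (-0.35, edgeR adjusted p = 0.000981) and with the replicate block (-0.34, edgeR adjusted p = 0.0246). Ubx-N51A against Ubx-WT gave 0.12 (95% interval -0.13 to 0.36; edgeR adjusted p = 0.658).

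Eater, a Nimrod receptor for bacteria, was weakly transcribed. The gene eater (3R, 27095867 to 27099679, minus strand) had 69, 89 and 99 reads with GFP, or 1.57, 2.27 and 1.93 CPM. The Ubx-WT libraries held 44, 83 and 93 reads (1.05, 1.66 and 1.36 CPM), and the Ubx-N51A libraries 40, 47 and 84 reads (1.33, 1.26 and 1.32 CPM). The Ubx-N51A libraries lay below all GFP libraries, and 1 Ubx-WT library lay above the lowest GFP library. The log2 fold changes of -0.49 (95% interval -0.88 to -0.10; edgeR adjusted p = 0.0843) with Ubx-WT and -0.55 (-0.96 to -0.15; edgeR adjusted p = 0.0943) with Ubx-N51A did not pass. For Ubx-WT the difference was called without Ubx-WT replicate 2 (-0.65, edgeR adjusted p = 0.0473), and for Ubx-N51A without the filter (-0.56, edgeR adjusted p = 0.0493). Ubx-N51A against Ubx-WT gave -0.06 (95% interval -0.48 to 0.35; edgeR adjusted p = 0.918).

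Of the class C receptors, Sr-CIV fell with both Ubx proteins, from a low level. It (2L, 3522521 to 3524056, minus strand) had 27, 29 and 40 reads with GFP, or 0.614, 0.739 and 0.78 CPM. The Ubx-WT libraries held 14, 21 and 34 reads (0.333, 0.419 and 0.496 CPM), and the Ubx-N51A libraries 13, 10 and 21 reads (0.433, 0.269 and 0.329 CPM). Every library of either Ubx group was below every GFP library. The log2 fold change was -0.74 (SE 0.23; 95% interval -1.24 to -0.24; edgeR adjusted p = 0.0436) with Ubx-WT and -1.08 (SE 0.251; 95% interval -1.62 to -0.53; edgeR adjusted p = 0.0202) with Ubx-N51A. Both values rest on the same GFP libraries. Ubx-N51A against Ubx-WT gave -0.34 (95% interval -0.91 to 0.24; edgeR adjusted p = 0.581), and these groups overlapped.

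The Sr-CIV calls depended on single libraries. With Ubx-WT the call was lost in all 6 fits with a library left out, with edgeR adjusted p of 0.055, 0.119 and 0.131 without GFP replicate 1, 2 and 3, and of 0.108, 0.115 and 0.06 without Ubx-WT replicate 1, 2 and 3. DESeq2 did not make it either (-0.76, adjusted p = 0.137), and it was lost with library totals (edgeR adjusted p = 0.0561), without the filter (0.0562) and with the replicate block (0.0646). With Ubx-N51A it was lost without GFP replicate 2 (0.0754), GFP replicate 3 (0.0726), Ubx-N51A replicate 2 (0.0774) or Ubx-N51A replicate 3 (0.0738). The estimate stayed between -0.91 and -0.62 with Ubx-WT and between -1.21 and -0.96 with Ubx-N51A in these fits. A 35 bp stretch of Sr-CIV's exons lies opposite those of CG8851, which had 0 to 4 reads per library.

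**Figure D3:**
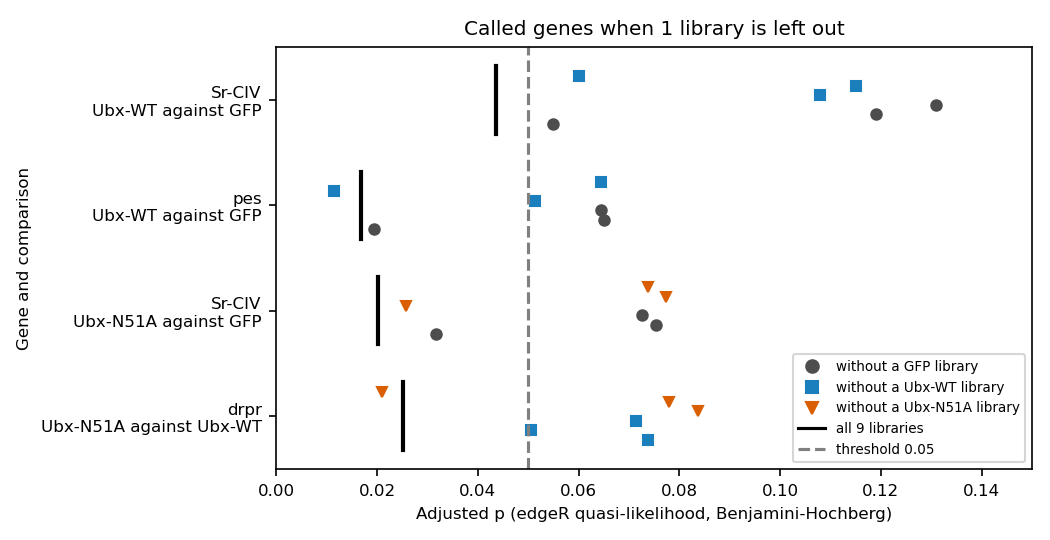
Benjamini-Hochberg adjusted p of edgeR's quasi-likelihood test (x axis) for the 4 differences called among the receptor genes, with all 9 libraries (black bars) and without 1 library of either group compared (symbols, coloured by the group of the missing library). The symbols fall on both sides of the dashed threshold of 0.05 for pes, drpr and the Ubx-N51A difference of Sr-CIV, and all to its right for Sr-CIV with Ubx-WT.

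Sr-CI, the class C receptor known to bind bacteria, was less abundant than the class B receptors. It (2L, 4121702 to 4124153, plus strand) had 3.89, 4.92 and 4.49 CPM with GFP, 3.14, 3.59 and 3.85 CPM with Ubx-WT, and 3.29, 3.76 and 3.76 CPM with Ubx-N51A. The GFP libraries lay above all others, the lowest of them by a small margin. The log2 fold changes of -0.32 (95% interval -0.57 to -0.07; edgeR adjusted p = 0.0815) and -0.29 (-0.54 to -0.03; edgeR adjusted p = 0.167) did not pass for Ubx-WT and Ubx-N51A. With the replicate block the Ubx-WT difference of Sr-CI was called (-0.32, edgeR adjusted p = 0.0495). Between the Ubx proteins the difference was 0.03 (95% interval -0.23 to 0.29; edgeR adjusted p = 0.935).

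Counted together, 0 of the 7 receptor genes tested rose and 2 fell with Ubx-WT, which were pes and Sr-CIV. Across all 9207 genes tested edgeR called 16.6% in this comparison, 8.72% as rises and 7.83% as falls. With Ubx-N51A against GFP 0 rose and 1 fell, Sr-CIV, where 8.09% of all genes were called, 3.38% as rises and 4.71% as falls. Between Ubx-N51A and Ubx-WT 1 was lower, drpr, where 5.14% were called, 1.23% as higher and 3.91% as lower. The groups did not overlap for 4 of 7 with Ubx-WT (35.4% of all genes), for 5 of 7 with Ubx-N51A (29.4%), and for 1 of 7 between the Ubx proteins (22.8%). The estimate was below 0 for 5 of 7 with Ubx-WT (49.8% of all genes), for 6 of 7 with Ubx-N51A (45.8%) and for 4 of 7 between the Ubx proteins (47.9%). The medians of the 7 were -0.32, -0.23 and -0.018, against 0.00054, 0.013 and 0.0056 for all genes tested. The comparisons with GFP share its libraries. With unadjusted p under 0.05 there were 6 of 7 with Ubx-WT (30.7% of all genes), 4 of 7 with Ubx-N51A (23.4%) and 1 of 7 between the Ubx proteins (17%), the last near the share over all genes. Library totals in place of TMM moved the median of all genes from 0.00054 to 0.0537 on the log2 scale for Ubx-WT against GFP. That scaling also raised the share of higher among called genes from 52.7% to 77.6%, and lowered it from 23.9% to 8.66% for Ubx-N51A against Ubx-WT.

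**Figure D4:**
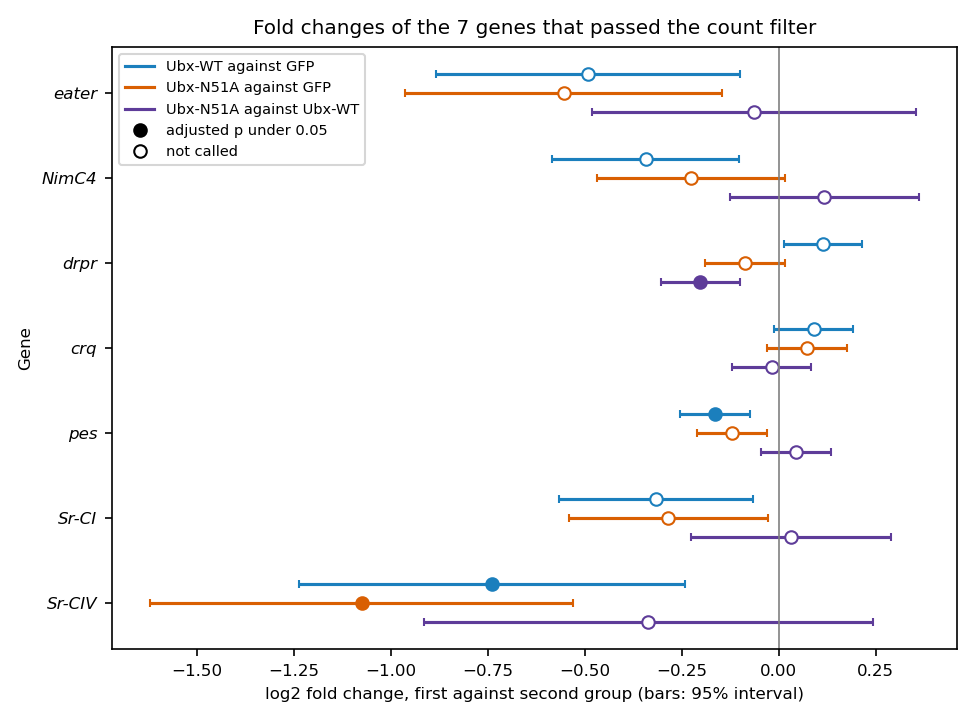
Log2 fold change (x axis) of the 7 receptor genes that passed the count filter (y axis) in the 3 comparisons, with 95% intervals from edgeR's quasi-likelihood fit. Filled points passed at an adjusted p under 0.05: pes and Sr-CIV with Ubx-WT, Sr-CIV with Ubx-N51A, and drpr between the Ubx proteins; intervals are narrow for crq, pes and drpr and widest for Sr-CIV.

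The relatives of these receptors were mostly silent. Of the other 8 Nimrod genes, NimA, NimB1 to NimB5, NimC2 and NimC3, all stood under 1 CPM in every library. Only NimB5, which encodes a secreted Nimrod protein, passed the filter, and it was not called. Of 13 other scavenger receptors of classes B and C, 5 passed the filter, 1 rose with each Ubx protein and none of the others was called. Over all genes tested, 8.72% were called as rises with Ubx-WT and 3.38% with Ubx-N51A. The scavenger receptor gene that rose was CG40006, a member of the CD36 family. Its level was 12.2 to 15.3 CPM with GFP, 19.7 to 21.5 CPM with Ubx-WT and 17.9 to 19.8 CPM with Ubx-N51A. All Ubx libraries were above all GFP libraries, by 0.62 on the log2 scale with Ubx-WT (SE 0.0801; edgeR adjusted p = 0.000191) and by 0.47 with Ubx-N51A (SE 0.0818; edgeR adjusted p = 0.00415). With Ubx-WT, CG40006 rose while pes fell.

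The machinery inside the cell was for the most part strongly transcribed. The 16 genes of engulfment signalling summed to 2422 to 2638 CPM over the libraries, with jp and rtp under 1 CPM in every library, and the 17 phagosome genes summed to 7239 to 7938 CPM. Of 15 tested genes of engulfment signalling, 0 rose and 1 fell with each Ubx protein, with medians of 0.019 for Ubx-WT and 0.0044 for Ubx-N51A. The one was mbc, a guanine nucleotide exchange factor for Rac, which went from 314 ± 12.9 CPM with GFP to 274 ± 12.2 CPM with Ubx-WT (-0.20, edgeR adjusted p = 0.012) and to 274 ± 10.8 CPM with Ubx-N51A (-0.19, edgeR adjusted p = 0.0243; SD, n = 3). The adaptor gene ced-6, whose product binds the tail of Draper, stood at 690.0 to 821 CPM and was not called. Of the 17 phagosome genes, 0 rose and 1 fell with each Ubx protein. These counts lie near the shares of all genes called as falls, 7.83% with Ubx-WT and 4.71% with Ubx-N51A, and do not set either list apart. The phagosome gene that fell was Arp3, a subunit of the complex that nucleates branched actin. It went from 861 ± 7.12 CPM to 772 ± 10.7 CPM with Ubx-WT (-0.16, edgeR adjusted p = 0.0169) and to 779 ± 18.0 CPM with Ubx-N51A (-0.14, edgeR adjusted p = 0.0434). Between the Ubx proteins 0 genes of either list were called. The mbc call for Ubx-WT was lost without GFP replicate 1 (0.0574), GFP replicate 2 (0.0608) or Ubx-WT replicate 3 (0.0655), and that of Arp3 without the same libraries (0.0631, 0.0629 and 0.0838) and with library totals (-0.10, edgeR adjusted p = 0.0932). For Ubx-N51A, mbc lost its call without GFP replicate 1 (0.101), GFP replicate 2 (0.115), Ubx-N51A replicate 2 (0.112) or Ubx-N51A replicate 3 (0.0704). Arp3 lost it without GFP replicate 1 (0.131), 2 (0.141) and 3 (0.0956) and without Ubx-N51A replicate 2 (0.165) and 3 (0.0885). With all libraries of both groups kept, this Arp3 call was also lost with the replicate block (0.0808) and in the fit of the 2 groups alone (0.0623).

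Among the secreted opsonins and other recognition proteins, the largest change was in Tep2, a thioester protein of the complement-like family. It fell from 85.7, 93.8 and 111 CPM with GFP to 54.7, 60.5 and 56.3 CPM with Ubx-WT and to 49.3, 56.5 and 55.7 CPM with Ubx-N51A. The GFP libraries stood above all others. The log2 fold change was -0.76 (SE 0.0829; edgeR adjusted p = 4.15e-05) with Ubx-WT and -0.85 (SE 0.0839; edgeR adjusted p = 5.81e-05) with Ubx-N51A. Both Tep2 calls, and both of CG40006, held in every alternative fit run. Tep4, of the same family, was lower with Ubx-N51A than with GFP (-0.21, edgeR adjusted p = 0.011) and than with Ubx-WT (-0.20, edgeR adjusted p = 0.0166). In all, 1 of 7 tested genes of this list fell with Ubx-WT, 2 fell with Ubx-N51A, 1 was lower with Ubx-N51A than with Ubx-WT, and 0 rose. Over all genes tested, the shares called as lower in these comparisons were 7.83%, 4.71% and 3.91%. The Tep4 call against GFP was lost without GFP replicate 1 (0.0585) or GFP replicate 2 (0.0624), and that against Ubx-WT without Ubx-WT replicate 3 (0.0697) or Ubx-N51A replicate 1 (0.0617).

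**Figure D5:**
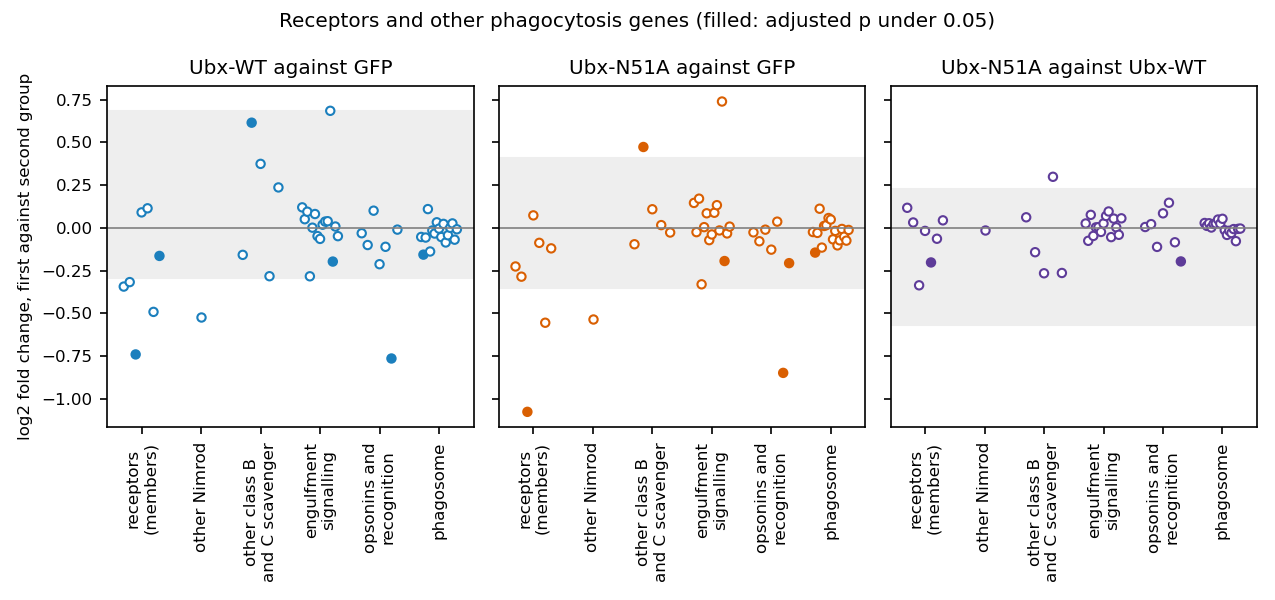
Log2 fold changes (y axis) of the receptor genes and of the tested genes of 5 phagocytosis lists (x axis) in the 3 comparisons. Filled points passed at an adjusted p under 0.05 and the grey band spans the central 90% of all genes tested; Sr-CIV, Tep2, eater and NimB5 lie below the band with either Ubx protein, the last pair without passing, NimC4 and Sr-CI lie below it with Ubx-WT, CG40006 and jp lie above it with Ubx-N51A, and most genes of engulfment signalling and of the phagosome lie near 0.

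Markers of blood cell types were read beside these changes. Over all genes tested, 7.83% were called as falls with Ubx-WT and 4.71% with Ubx-N51A, to be read beside the counts below. Of 9 tested haemocyte genes 2 fell with Ubx-WT (ush and Col4a1) and 1 with Ubx-N51A (Col4a1). The summed level of all 11 listed haemocyte genes was 1160 to 1290.0 CPM with GFP, 1147 to 1239 with Ubx-WT and 1188 to 1242 with Ubx-N51A. Of 3 tested lamellocyte markers, mthl4 and ItgaPS4 fell with each Ubx protein. The third, PPO3, was the most abundant, with means of 68.6 CPM with GFP, 63.3 with Ubx-WT and 65.2 with Ubx-N51A. It was not called with Ubx-WT (edgeR adjusted p = 0.204) or Ubx-N51A (edgeR adjusted p = 0.52). The summed level of the 4 markers was 111 to 119 CPM with GFP, 93.4 to 103 with Ubx-WT and 94.6 to 105 with Ubx-N51A, while the defining marker atilla was under 1 CPM in every library. Crystal cell markers were at 9.22 to 9.41 CPM with GFP, 8.9 to 10.7 with Ubx-WT and 7.59 to 10.9 with Ubx-N51A, and none was called. The fat body marker Fbp1 had 1 read over the GFP libraries, 54 with Ubx-WT and 2 with Ubx-N51A, while Lsp1alpha and Lsp2 had at most 1 read in any group. Fbp1 was called higher with Ubx-WT than with GFP (log2 fold change 5.06, edgeR adjusted p = 0.000192). It was called lower with Ubx-N51A than with Ubx-WT (-4.23, edgeR adjusted p = 0.000691). Yp1 had 10, 20 and 7 reads in the 3 groups, and all 4 fat body markers stayed under 1 CPM in every library. Of the tested neuron, glia and muscle markers none was called; the neuron list summed to 34.0 to 42.7 CPM with GFP, 42.7 to 53.8 with Ubx-WT and 43.1 to 48.0 with Ubx-N51A, mostly elav. The part of these markers in the receptor changes was not tested.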

How the data were processed

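The deposited files, 1 for each library, hold unnormalized counts of reads by FlyBase identifier. Their 5 summary rows were kept out of library sizes and tests. The submitters' processing notes name STAR, HTSeq, Trimmomatic 0.36, FastQC, DESeq2 and DESeq beside the builds BDGP6 and dm6. Settings are not given in those notes. Per the labels' protocols, the directional libraries were read as 75 bp single ends. Reads in no gene made up 1.50% to 2.27% of each file, ambiguous reads 3.11% to 3.32% and multiply aligned reads 3.26% to 5.05%.

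Symbols matched 17253 of 17559 identifiers. Positions and exon lengths came from Ensembl 115 (BDGP6.54, the dm6 assembly). With edgeR 4.0.16 in R 4.3.3, filterByExpr left 9207 genes, TMM factors ran from 0.971 to 1.03, and a single quasi-likelihood model of the 3 groups was fitted to the 9 libraries. Biological variation had a common coefficient of 5.41%. Calls were made where p, adjusted by Benjamini-Hochberg over all genes tested, was under 0.05. SE is the log2 fold change over the root of F, and 95% intervals use the fit's degrees of freedom. Replicates differed by more than sampling noise (chi-square per degree of freedom at least 6.76). The steps of the main fit were also run on simulated counts, with changes larger than those of pes, drpr, mbc and Arp3. The outcome of that run is not reported here.

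The members and lists were chosen with earlier results of these data known. Named beside the 9 members are up to 4 called genes per direction, list and comparison that reach 2 CPM. Genes like a member in pattern are those with the smallest root mean square difference of centred log2 CPM (prior count 2). Genes named as not called, and marker genes, stand outside this rule. List entries without a match, or a second name of a listed gene, were left out. Alternatives were DESeq2 1.42.0, other scalings and filters, fits of the 2 groups alone, a replicate block and leaving out each library.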

Additional observations from a re-analysis of the deposited data

How the results depend on the processing

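Among 270 refits of single receptor differences, 226 kept direction and side of the threshold, 26 lost a call, 11 gained one and 7 changed sign, none of the 7 called. Most of the 270 refits were of differences not called at the start, and all 26 losses fell on the 4 called differences. With a library left out, Sr-CIV kept its call in 0 of 6 fits with Ubx-WT and in 2 of 6 with Ubx-N51A. The call of pes with Ubx-WT held in 2 of 6, and that of drpr between the Ubx proteins in 1 of 6. The sign changes were all between Ubx-N51A and Ubx-WT. With library totals Sr-CI turned to -0.019 and pes to -0.0088. Sr-CI turned to -0.038 without Ubx-WT replicate 1 and to -0.0024 without Ubx-N51A replicate 3. With a library left out the estimate ran from -0.038 to 0.106 for Sr-CI, from -0.055 to 0.023 for crq and from -0.196 to 0.094 for eater. There crq turned to 0.023 without Ubx-WT replicate 2 and to 0.0061 without Ubx-N51A replicate 3, and eater to 0.094 without Ubx-WT replicate 2. The count of receptors called with Ubx-WT against GFP was 1 where genes needed 1 CPM in 3 libraries, a filter that removes Sr-CIV, and 0 to 2 with a library left out. With Ubx-N51A against GFP it was 2 without a filter, 0 under the 1 CPM filter and 0 to 1 with a library left out. Between the Ubx proteins it was 0 with the replicate block, 0 in the fit of the 2 groups alone and 0 to 1 with a library left out. With the block, 3 receptors were called with Ubx-WT: NimC4 and Sr-CI gained a call and Sr-CIV lost it. Same-numbered libraries showed no strong shared deviation (correlations from -0.108 to 0.177, own number closest in 4 of 18 checks). The highest correlation was between replicate 1 of GFP and replicate 1 of Ubx-WT. With 3 libraries per group this check cannot exclude that same-numbered libraries were prepared together. In the file names GFP replicate 2 has another number than replicate 2 of both Ubx groups, so the block joins libraries there that the file names do not; the correlations of the remaining pairs span the same range. Over all genes, calls numbered 1524, 745 and 473 in the order Ubx-WT against GFP, Ubx-N51A against GFP and Ubx-N51A against Ubx-WT. With a library left out they ran from 990 to 1639, 362 to 578 and 302 to 464, and the third was 300 under the 1 CPM filter. Genes of the 5 lists called numbered 2 to 4, 2 to 5 and 0 to 1 with a library left out, an alternative chosen after seeing the data. The cause of these changes was not tested beyond what each alternative removes. Sr-CIV, NimC1 and Sr-CII are limited by depth.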

Other observations

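NimC1 and NimC4 lie in a 91325 bp stretch of 2L from NimA to NimC4 (13957539 to 14048863) that holds 22 counted genes, 6 of which passed the filter. The stretch was looked at after the values of its genes were seen. The genes called in it were not Nimrod genes but rk, the bursicon receptor, and bgm, which encodes an enzyme that activates long-chain fatty acids. Both were called in every comparison, 2 of the 6 tested. Over all genes tested, 16.6% were called for Ubx-WT against GFP, 8.09% for Ubx-N51A against GFP and 5.14% between the Ubx proteins. Summed reads of bgm were 238 with GFP, 595 with Ubx-WT and 349 with Ubx-N51A, and its log2 fold changes against GFP were 1.06 (edgeR adjusted p = 7.53e-05) and 0.59 (edgeR adjusted p = 0.0154). Summed reads of rk were 12, 594 and 38, and its log2 fold changes against GFP were 5.34 (edgeR adjusted p = 9.21e-09) and 1.68 (edgeR adjusted p = 0.0147). For Ubx-N51A against Ubx-WT, rk gave -3.655 (edgeR adjusted p = 6.69e-08) and bgm -0.47 (edgeR adjusted p = 0.0368). NimC2, which overlaps rk, had 2, 8 and 0 reads, and NimC3, next to bgm, had 0 reads in all libraries. NimC4 had 5155, 4849 and 4327 reads. These sums are not scaled for depth, and the mean levels of NimC4 were 38.8 CPM with GFP, 30.6 with Ubx-WT and 33.2 with Ubx-N51A.

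Genes whose pattern over the 9 libraries lay closest to that of a called receptor were listed as a description. All points share these libraries and their scaling. Closest to pes were lost, ens and CG1172, at a root mean square difference of 0.0213, 0.0239 and 0.0242 in centred log2 CPM, where pes itself varied by 0.0796. Closest to drpr were Tnpo-SR (0.0257), CG6847 (0.0345) and Hsl (0.04), where drpr varied by 0.0941. Closest to Sr-CIV were Cipc (0.214), Pvf2 (0.221) and CG10864 (0.227), where Sr-CIV varied by 0.464.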
